A study of Mus musculus with 2 samples.

Results

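Capillary endothelial cells were described here in a single-cell RNA sequencing experiment on mouse limb muscle that compared a vehicle, dimethyl sulfoxide (DMSO), with Maraviroc (MVC), a small-molecule drug. Cells were assigned by the genes they expressed and not by a sort or a stain. A cell was counted as blood endothelial when at least 2 of the 4 endothelial genes Pecam1, Cdh5, Flt1 and Ptprb were detected, when Prox1 was not detected, and when both Ptprc and Pdgfra were below 2 unique molecular identifiers (UMIs, each standing for 1 captured transcript). It was counted as capillary when at least 2 of the 5 genes Gpihbp1, Timp4, Rgcc, Cd36 and Kdr were detected and when these outnumbered both the detected arterial genes, among Sema3g, Gja5, Bmx, Stmn2 and Cytl1, and the detected venous genes, among Selp, Lrg1, Ackr1, Plvap and Olr1. Under this rule 3505 of the 10891 cells retained from both libraries were capillary endothelial cells, 1882 of 5437 from the DMSO library and 1623 of 5454 from the MVC library.

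Capillaries are the exchange vessels of skeletal muscle, and each muscle fibre is surrounded by several of them. Their endothelium anchors lipoprotein lipase through the protein GPIHBP1, takes up the fatty acids that the lipase frees through CD36, and passes them on to the fibre with the help of fatty acid binding proteins. It depends on VEGF signals received by the receptor KDR, restricts leukocyte adhesion compared with the endothelium of venules, and answers interferons strongly.

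Each treatment was represented by 1 library of limb muscle mononuclear cells, so no statistical test of the treatment was possible and no p-value is given. The labels and the study's methods describe aged C57BL/6 mice that received MVC or DMSO by intraperitoneal injection on alternate days under a high-dose, short-term regimen, hindlimb muscle digested with collagenase and dispase, red blood cells lysed, and live cells sorted with a viability dye. The number of mice that went into each library is not given in the sources used here, and a difference between the libraries cannot be told apart from a difference between animals, dissections or runs. All intervals below are 95% intervals that cover counting error only. Levels are CPM, the UMIs of a gene per 1000000 UMIs that the cells of a class held in a library. Ratios are MVC over DMSO, and the exact intervals of ratios were conditional on the summed UMIs.

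The capillary cells held 8284372 UMIs in DMSO and 6783906 in MVC. Their median depth was 3606.5 UMIs and 1541 genes in DMSO and 3416 UMIs and 1543 genes in MVC, and 11.7% vs. 20.1% of them had fewer than 2000 UMIs. The median mitochondrial share was 1.35% in both. The 2 libraries shared 9 cell barcodes, of which 4 belonged to a capillary cell in either library and 0 to one in both. Transcripts that mark other cell types were present in the capillary cells and differed between the libraries. The summed level of 14 fibroblast and tenocyte genes was 769 CPM in DMSO and 2037 CPM in MVC, and all 13 of these genes that had enough UMIs for a comparison were at least 1.5-fold higher in MVC. They remained far below the 22773 and 23406 CPM of the non-endothelial cells, that is, all retained cells that failed the endothelial criteria. At least 2 UMIs of these genes were found in 16.0% (14.4 to 17.8%) of capillary cells in DMSO and in 27.8% (25.7 to 30.1%) in MVC. For 12 mural cell genes (pericytes and smooth muscle) the summed level was 1468 vs. 1652 CPM and the share of cells 22.1% vs. 25.2%. Immune markers summed to 40.3 vs. 43.5 CPM, with 2 of the 13 at 0 in each library. Satellite and Schwann cell markers summed to 24.3 vs. 53.5 CPM, myofibre markers to 38.02 vs. 69.6 CPM, lymphatic markers to 96.9 vs. 135 CPM and adipocyte markers to 2.78 vs. 1.62 CPM. Haemoglobin and Alas2 transcripts summed to 3260.2 vs. 1092 CPM, with 99.4% and 97.0% of these UMIs in the cells that held 10 or more. A simulation-based doublet score called 131 (6.96%) of the capillary cells in DMSO and 100 (6.16%) in MVC. The part of these transcripts in the differences described below was not tested. Each ratio that the text leads with was therefore also computed in the 1262 DMSO and 890 MVC capillary cells with fewer than 2 UMIs of each of the mural, fibroblast and tenocyte, immune, and satellite and Schwann cell lists, which are called marker-free below. These cells still held such transcripts, and more of them in MVC. Fibroblast and tenocyte genes summed to 94.6 vs. 142 CPM there, mural genes to 38.1 vs. 66.7 CPM and immune genes to 23.1 vs. 43.4 CPM. Myofibre genes, which were not used to choose these cells, summed to 38.8 vs. 83.0 CPM.

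The rule genes separated the classes by construction, and their values are given as a description. Gpihbp1, which carries lipoprotein lipase to the luminal surface, stood at 578 CPM in the capillary, 6.11 CPM in the arterial and 72.3 CPM in the venous cells of the DMSO library, and at 412, 6.41 and 54.9 CPM in MVC. Cd36, the fatty acid translocase, was less confined, at 3627, 699 and 1694 CPM in DMSO and 1939.7, 358 and 935 CPM in MVC. Kdr, the main VEGF receptor of endothelium, stood at 482, 25.5 and 122 CPM in DMSO.

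The capillary label was checked with 10 genes outside the rule. Of these, 7 stood above both the arterial and the venous level in each library by at least 1.5-fold, namely Car4, Cd300lg, Btnl9, Aqp7, Rbp7, Tcf15 and Mgll. Car4, the membrane carbonic anhydrase of capillary walls, was at 172 CPM in capillary, 2.04 in arterial and 4.92 in venous cells in DMSO, and at 129.6, 4.27 and 0.9801 CPM in MVC. Aqp1, a water channel, separated capillary from arterial cells but not from venous cells, at 2885, 17.3 and 2555 CPM in DMSO. Fabp4, the endothelial fatty acid binding protein, was at 12774, 6435 and 8234 CPM in DMSO and at 7225, 2908 and 7332 CPM in MVC, so that in MVC the venous level was close to the capillary one. Meox2, a transcription factor of fatty acid transport, stood at 118, 69.4 and 66.7 CPM in MVC, and in DMSO its capillary level was 2.16 times the arterial but only 1.38 times the venous one. Most, but not all, of the arterial and venous check genes ran the other way. Of 6 arterial genes, Gja4, Alpl, Efnb2 and Fbln5 were lower in capillary than in arterial cells of each library, whereas Sox17 and Hey1 stood at 1.68 and 1.43 times the arterial level in DMSO and at 0.914 and 0.632 times it in MVC. Of 5 venous genes, Nr2f2, Vwf, Vcam1 and Il6st were lower in capillary than in venous cells of each library, whereas Ephb4 was at 2.26 and 2.42 times the venous level. Gja4 was at 13.9 CPM in capillary vs. 176 CPM in arterial cells, and Vwf at 55.8 CPM in capillary vs. 526 CPM in venous cells of the DMSO library.

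**Figure D1:**
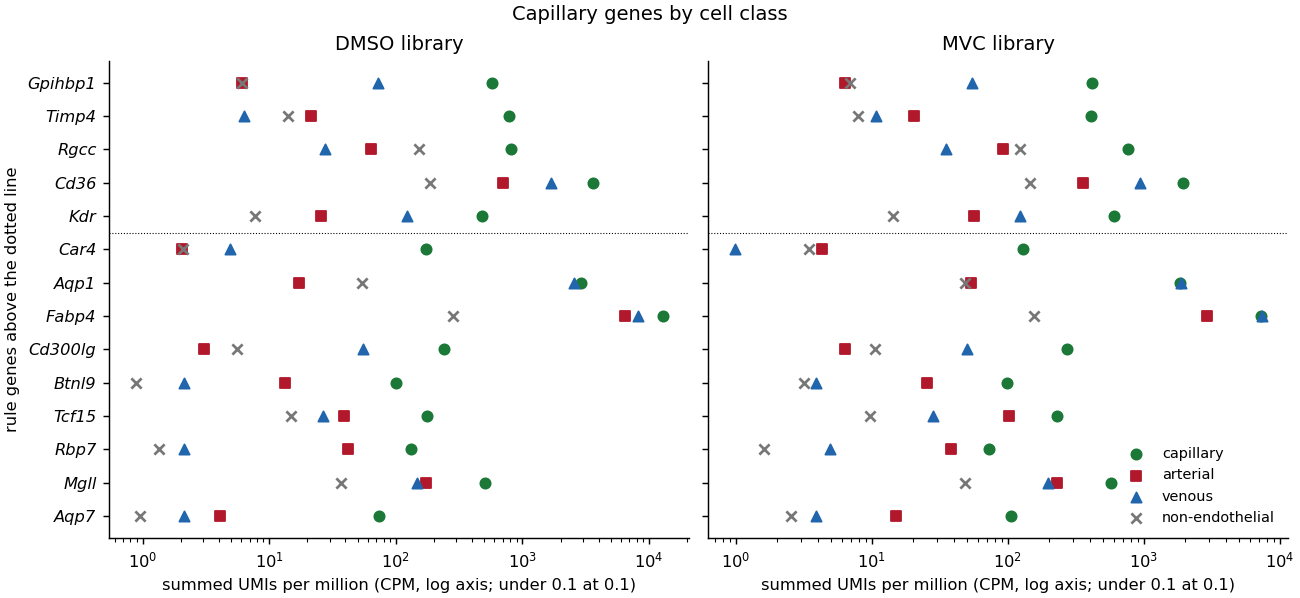
CPM of the 5 capillary rule genes (above the dotted line) and of 9 genes outside the rule (below it), with a log axis, in capillary, arterial, venous and non-endothelial cells of the DMSO library (left) and the MVC library (right); each symbol is 1 class of 1 library. Car4 stands at 172 and 129.6 CPM in capillary cells and below 5 CPM in arterial and venous cells, whereas Aqp1 is nearly as high in venous as in capillary cells of DMSO.

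Among all genes, 10241 had at least 100 UMIs over the 3 classes and both libraries. Of these, 628 (6.13%) were at least 2-fold higher in capillary cells than in both arterial and venous cells in each library, and 152 (1.48%) were at least 2-fold lower. The classes were chosen by measured genes, so these counts describe the classes and test nothing. The 10 genes that led outside the rule were Car4, Gm12002, Slc1a1, Lpl, 4430402I18Rik, Slc28a2, Ccdc85a, Abcb4, Cdh23 and Adam22. Slc1a1, a glutamate transporter, stood at 396 CPM in capillary, 3.06 in arterial and 15.4 CPM in venous cells of the DMSO library and at 353, 12.8 and 18.6 CPM in MVC. Slc28a2, a concentrative nucleoside transporter, stood at 218, 5.095 and 8.43 CPM in DMSO. Abcb4, a phospholipid transporter, was at 32.1, 1.02 and 2.81 CPM. The 10 genes at the other end were Vcam1, Ctsh, Slc7a11, B4galt6, Itgb4, Slco2a1, Hs3st1, Cp, Bgn and Golm1. Vcam1, a leukocyte adhesion molecule, was at 48.04 CPM in capillary vs. 2386 CPM in arterial and 1264 CPM in venous cells in DMSO, and at 120.0, 2214 and 1657 CPM in MVC. Slco2a1, the prostaglandin transporter, was at 23.3, 197 and 621 CPM in DMSO, and Itgb4, a laminin-binding integrin subunit, at 4.47, 45.9 and 55.5 CPM. Vcam1 was thus lowest in the capillary class in each library.

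A smaller share of the MVC library met the capillary rule. They were 34.6% (33.3 to 35.9%) of retained cells in DMSO and 29.8% (28.5 to 31.0%) in MVC, a difference of -4.86 percentage points (-6.61 to -3.10). Among blood endothelial cells they were 79.2% (77.5 to 80.8%) of 2376 in DMSO and 72.8% (70.9 to 74.7%) of 2229 in MVC, a difference of -6.40 points (-8.86 to -3.93). Endothelial cells that met none of the 3 class definitions ran the other way, at 7.24% vs. 15.3% of blood endothelial cells, and they were shallow in MVC, with a median of 1691 UMIs vs. 4821 in DMSO. The rule genes themselves differed between the libraries, and the depth did too, so these shares count cells that met the rule and not capillaries. They were also taken at equal depth. With every cell thinned to 2000 UMIs before the rule was applied, which left out 221 DMSO and 326 MVC capillary cells along with all other shallower cells, the shares of retained cells were 31.7% and 26.5%, a difference of -5.25 points (-7.08 to -3.42). Arterial cells were 6.14% and 5.83% of blood endothelial cells, with a difference of -0.313 points whose interval (-1.69 to 1.07) included 0.

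The capillary score, the number of the 5 capillary genes detected, was also lower in MVC. In DMSO 174, 352, 558 and 798 cells held 2, 3, 4 and 5 of the genes, and in MVC 225, 355, 507 and 536 cells did. The cells just inside the rule, with 2 genes, had a median of 2561.5 UMIs in DMSO and 2170 in MVC and held Cd36 at 1919.6 and 976 CPM. Those just outside it, with 1 capillary gene and no arterial or venous gene, numbered 62 in DMSO and 137 in MVC, had medians of 2247 and 1469 UMIs and held Cd36 at 917 and 474 CPM. Both sides of the limit were thus shallower than the cells with 5 genes, whose medians were 4244 and 4129 UMIs, and both held less Cd36 in MVC.

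**Figure D2:**
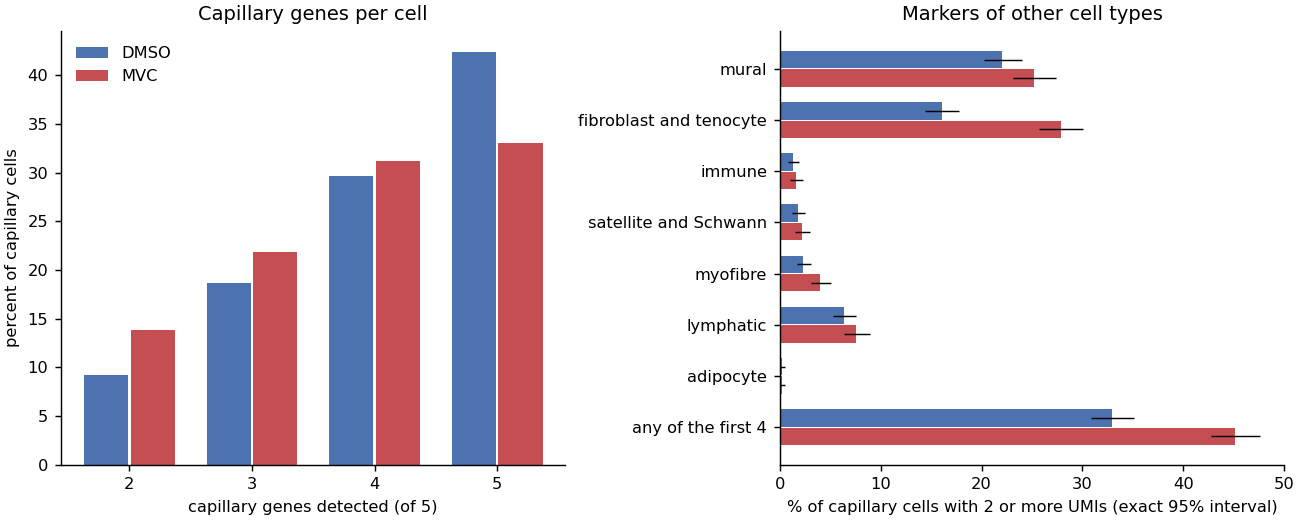
Left, percent of capillary cells in each library by the number of the 5 capillary genes detected; right, percent of capillary cells with at least 2 UMIs of marker lists of other cell types, with exact 95% intervals over cells (counting error only); bars are blue for the DMSO and red for the MVC library. Cells with all 5 genes are 42.4% of capillary cells in DMSO and 33.0% in MVC, and the fibroblast and tenocyte markers differ most between the libraries, at 16.0% vs. 27.8%.

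Of the genes that define the class, Cd36 and Timp4 were lowest in the MVC library relative to DMSO. Cd36 (chromosome 5, 17781690 to 17888801, - strand, GRCm38) was at 3627 CPM in DMSO vs. 1939.7 CPM in MVC cells (ratio 0.535, 95% interval 0.524 to 0.546). Timp4, an inhibitor of metalloproteinases, was at 780.0 CPM in DMSO vs. 408 CPM in MVC cells (ratio 0.523, 95% interval 0.501 to 0.547), and Gpihbp1 at 578 vs. 412 CPM (ratio 0.714, 95% interval 0.681 to 0.748). Rgcc was close to equal, at 815 vs. 759 CPM (ratio 0.931), and Kdr was higher in MVC, at 482 vs. 600.2 CPM (ratio 1.24, 95% interval 1.19 to 1.30). The pan-endothelial genes Pecam1, Cdh5, Flt1 and Ptprb had ratios of 0.854, 0.846, 0.896 and 1.11. Because detection of these genes chose the cells, the values are descriptions.

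Across the whole transcriptome, 9489 genes had at least 100 UMIs in the capillary cells of both libraries together. A gene was called when its level differed by at least 1.5-fold. Of the 9489 genes, 949 (10.0%) were called higher in MVC and 238 (2.51%) lower, 12.5% in either direction. Scaling to the median ratio of all genes (a log2 shift of 0.10) instead of the total gave 708 higher and 392 lower. Genes whose level in capillary cells was at least that in non-endothelial cells in both libraries were more evenly split, with 249 of 3861 (6.45%) higher and 152 (3.94%) lower, whereas 700 of the other 5628 genes (12.4%) were higher and 86 (1.53%) lower. Among the marker-free cells, 588 of 6995 genes were higher (8.41%) and 270 lower (3.86%). The lists of genes below are read against these shares.

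**Figure D3:**
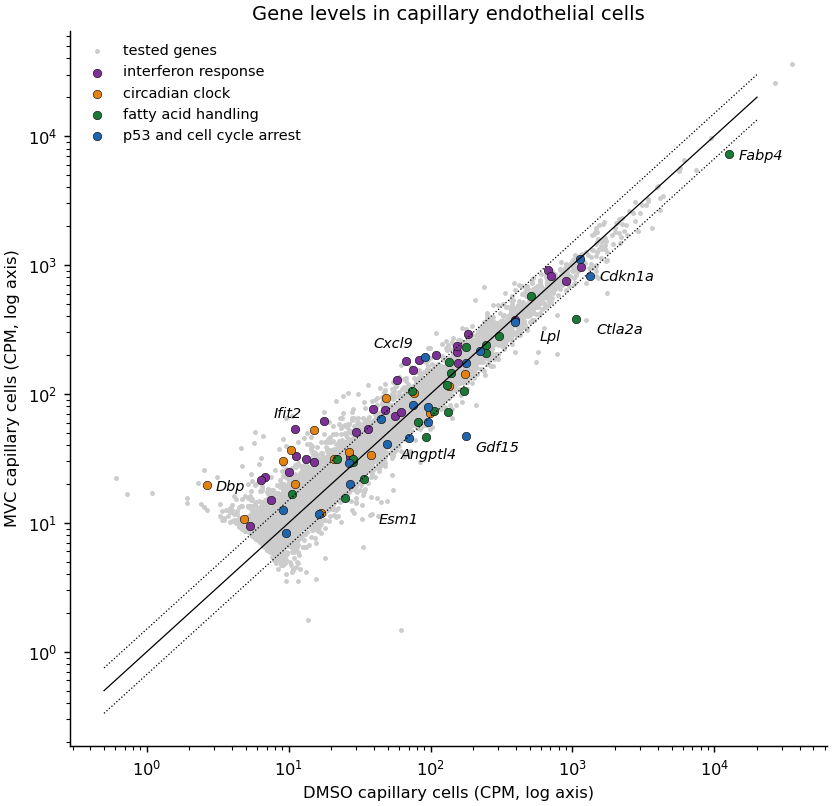
Level of each of the 9489 compared genes in the capillary cells of the DMSO library (x axis, CPM, log axis) and of the MVC library (y axis, CPM, log axis); the solid line marks equal levels, the dotted lines 1.5-fold differences, and colours mark 4 gene lists. Lpl (1054 vs. 379 CPM), Ctla2a, Gdf15 and Angptl4 lie below the lower dotted line, and most interferon genes, such as Ifit2 (11.1 vs. 53.4 CPM), lie above the upper one.

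Genes of fatty acid handling were lower in MVC capillary cells more often than genes overall. Of 22 compared genes, 7 were called lower and 1 higher, against 2.51% and 10.0% of all compared genes. The median log2 ratio of the list was -0.12, beside 0.10 over all compared genes. Lpl (chromosome 8, 68880491 to 68907448, + strand, GRCm38), which codes for the lipase that frees fatty acids from triglyceride-rich lipoproteins, was at 1054 CPM (1032 to 1076) in DMSO and 379 CPM (365 to 394) in MVC. The ratio was 0.3598 (0.344 to 0.376), and it was 0.407, 0.349 and 0.352 in cells with 5, 4 and 2 or 3 capillary genes, 0.3599 in cells with at least 2000 UMIs, 0.323 in shallower cells and 0.3899 in marker-free cells. The low MVC level was therefore found in each of these subsets. In non-endothelial cells the ratio of Lpl was 0.911 (0.877 to 0.946).

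Fabp4 (chromosome 3, 10204088 to 10208576, - strand, GRCm38) was the most abundant gene of the list, at 12774 CPM in DMSO vs. 7225 CPM in MVC cells (ratio 0.566, 95% interval 0.5596 to 0.572). Its ratio was below 1 in the other classes too, with values of 0.452 in arterial, 0.8904 in venous and 0.551 in non-endothelial cells. Angptl4, an inhibitor of lipoprotein lipase, was at 93.7 vs. 45.99 CPM (ratio 0.491, 95% interval 0.429 to 0.561), and Rbp7, a retinol binding protein of capillary endothelium, at 132 vs. 72.5 CPM (ratio 0.548, 95% interval 0.492 to 0.6103). The lipase and its inhibitor were thus both lower. The other genes called lower were the lipid droplet genes Plin2 (171 vs. 106 CPM, ratio 0.622) and Hilpda (25.1 vs. 15.5 CPM, ratio 0.616) and Cpt1a (34.04 vs. 21.8 CPM, ratio 0.641), which is needed to bring fatty acids into mitochondria. Further genes of storage and oxidation were not called, among them Pnpla2 (ratio 0.695), Acadl (0.749), Lipe (1.05), Hadhb (1.11) and Acsl1 (1.42). The transcription factors of the programme were not called. Pparg stood at 246 vs. 239.8 CPM, Ppard at 135 vs. 176 CPM and Tcf15 at 177 vs. 229.8 CPM, with ratios of 0.973, 1.302 and 1.30, and the ratio of Meox2 was 0.909. Aqp7, the glycerol channel, had a ratio of 1.43 (1.28 to 1.597) and so lay just under the limit in the opposite direction. Plin2 had a ratio of 0.751 in the marker-free cells, where it was no longer called. In those cells 7 of 21 compared genes were lower, Acadl among them, and 2 were higher, Aqp7 and Acsl1.

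Genes of the p53 pathway and of cell cycle arrest, which are used as readouts of senescence, included some of the largest differences. Of 18 compared genes, 4 were called lower and 1 higher, against 2.51% and 10.0% of all compared genes. The median log2 ratio was -0.15, beside 0.10 over all compared genes. Cdkn1a (chromosome 17, 29090976 to 29100727, + strand, GRCm38), the cyclin-dependent kinase inhibitor p21, was at 1340.1 CPM (1315 to 1365) in DMSO and 822 CPM (800.1 to 843) in MVC, a ratio of 0.613 (0.593 to 0.633). The ratio was 0.556, 0.619 and 0.671 in cells with 5, 4 and 2 or 3 capillary genes and 0.639 in marker-free cells. Similar ratios were found in arterial (0.682), venous (0.519) and non-endothelial cells (0.5999). Gdf15 (chromosome 8, 70629393 to 70632456, - strand, GRCm38), a stress-induced cytokine, was at 178 CPM in DMSO vs. 47.5 CPM in MVC cells (ratio 0.267, 95% interval 0.236 to 0.301), and its ratios in arterial and non-endothelial cells were 0.513 (0.395 to 0.663) and 0.657 (0.591 to 0.731). Cdkn2d (p19) was at 95.4 vs. 60.7 CPM (ratio 0.637, 95% interval 0.564 to 0.718), and Eda2r, a death receptor of the ectodysplasin family, at 70.9 vs. 45.8 CPM (ratio 0.647, 95% interval 0.562 to 0.744). Cdkn1c, which codes for the inhibitor p57, was higher in MVC, at 91.1 CPM in DMSO vs. 194 CPM in MVC cells (ratio 2.13, 95% interval 1.94 to 2.33). In arterial, venous and non-endothelial cells the list medians were -0.18, -0.11 and -0.20, beside 0.07, -0.08 and 0.05 over all compared genes. Lower genes there numbered 4 of 17, 4 of 15 and 3 of 18, and higher ones 3, 2 and 0. Among all compared genes 535 of 7328, 1152 of 7772 and 236 of 9468 were lower, and 16.5%, 10.7% and 3.83% higher.

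Other targets of p53 on the list did not pass 1.5-fold in the full set of capillary cells. Mdm2 was at 96.7 vs. 78.6 CPM (ratio 0.813), Bax at 49.1 vs. 40.98 CPM (ratio 0.834) and Btg2 at 1134 vs. 1114 CPM (ratio 0.982). In the marker-free cells 5 of 16 compared genes of the list were lower and 1, Cdkn1c, was higher. Among all genes compared in those cells 3.86% were lower and 8.41% higher. The lower genes there were Cdkn1a, Cdkn2d, Gdf15, Eda2r and also Bbc3. The senescence gene Cdkn2a, which codes for p16 and p19ARF, had 13 UMIs in DMSO and 20 in MVC, too few for the comparison. Of 10 proliferation genes only 4 reached 100 UMIs, and Mki67 was level, at 14.4 vs. 14.2 CPM (ratio 0.985, 95% interval 0.745 to 1.30). Pcna, the replication clamp, was at 171 vs. 124 CPM (ratio 0.729), and the helicase subunit Mcm5 at 16.1 vs. 10.5 CPM (ratio 0.652, 95% interval 0.482 to 0.876; 0.714 in marker-free cells, no longer called).

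Genes of the interferon response ran in the opposite direction. Of 31 compared genes, 20 were called higher in MVC and 0 lower, against 10.0% higher among all compared genes, and the median log2 ratio was 0.83. The list held its direction in the marker-free cells, where 17 of 26 genes were higher, 0 were lower and the median was 0.79. Ifit2 (chromosome 19, 34550694 to 34576419, + strand, GRCm38), which binds viral RNA and restrains translation, was at 11.1 CPM (8.95 to 13.6) in DMSO and 53.4 CPM (48.01 to 59.2) in MVC. Its ratio was 4.81 (3.81 to 6.11) in capillary cells, 5.65 in marker-free capillary cells, 4.31 (2.04 to 10.2) in arterial, 8.38 (1.02 to 385) in venous and 0.985 (0.887 to 1.09) in non-endothelial cells. Its relatives Ifit1 and Ifit3 had ratios of 3.44 (2.85 to 4.18) and 3.34 (2.42 to 4.67). Reads of Ifit3 may be shared with its near-identical copy Ifit3b, so its value is uncertain. Gbp2, Gbp3, Gbp4 and Gbp7, guanylate binding proteins that act against intracellular pathogens, had ratios of 2.02, 2.88, 1.59 and 2.205. They also belong to a family of similar genes.

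The 5 most abundant genes of the list were not called. Ifitm3 was at 1147 vs. 969.5 CPM (ratio 0.845), Ifitm2 at 899 vs. 758 CPM (ratio 0.843) and the transcription factor Irf1 at 707 vs. 815 CPM (ratio 1.15), followed by Iigp1 at 669 vs. 922 CPM (ratio 1.38) and Ly6e at 393 vs. 374 CPM (ratio 0.953). Isg15, a ubiquitin-like modifier, was at 155 vs. 237 CPM (ratio 1.53, 95% interval 1.42 to 1.65), Rsad2 (viperin) at 109 vs. 201 CPM (ratio 1.85, 95% interval 1.696 to 2.01), and Irf7, the factor that amplifies the response, at 15.1 vs. 29.8 CPM (ratio 1.97, 95% interval 1.57 to 2.49). Stat2, a transcription factor of the type I response, had a ratio of 1.11 (1.03 to 1.21). Among the MHC class I genes, which interferons also raise, 0 of 12 were called in either direction, with a median log2 ratio of 0.24, although Tap1, Psmb9 and Nlrc5 passed 1.5-fold in the marker-free cells, and H2-K1 and B2m stood at 1018 vs. 895 CPM and 1175 vs. 1045 CPM. Taking only genes with at least 20 UMIs in the class and UMIs in both libraries, the median log2 ratio of the interferon list was 0.58 over 28 genes in arterial cells, 0.38 over 27 genes in venous cells and 0.20 over 31 genes in non-endothelial cells, beside 0.07, -0.08 and 0.05 over all compared genes in those classes. The genes at least 1.5-fold higher numbered 14, 11 and 3, against 16.5%, 10.7% and 3.83% of all compared genes.

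The promoters of 4 genes of this list are shown because they carry the motif that interferon-activated factors of the IRF family are known to bind. Each runs from 250 bases before to 50 bases after the start of the gene, 5′ to 3′ on the gene's own strand, from RefSeq on GRCm38.p6, and capitals mark matches on either strand to the motif, GAAA and GAAA with any 2 bases between them.
Ifit1, chr19:34640639-34640938, + strand: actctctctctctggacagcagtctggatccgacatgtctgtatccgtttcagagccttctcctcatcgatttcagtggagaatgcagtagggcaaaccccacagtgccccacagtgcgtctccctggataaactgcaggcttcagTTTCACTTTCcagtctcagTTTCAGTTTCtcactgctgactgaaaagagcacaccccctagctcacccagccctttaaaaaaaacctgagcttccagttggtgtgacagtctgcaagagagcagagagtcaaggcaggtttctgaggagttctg
Ifit3, chr19:34583279-34583578, + strand: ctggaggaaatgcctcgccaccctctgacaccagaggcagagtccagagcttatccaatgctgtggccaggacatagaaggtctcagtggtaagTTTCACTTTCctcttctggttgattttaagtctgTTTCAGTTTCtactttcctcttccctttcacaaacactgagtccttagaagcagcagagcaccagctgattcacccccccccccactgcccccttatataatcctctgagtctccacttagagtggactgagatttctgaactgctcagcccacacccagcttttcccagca
Isg15, chr4:156200769-156201068, - strand: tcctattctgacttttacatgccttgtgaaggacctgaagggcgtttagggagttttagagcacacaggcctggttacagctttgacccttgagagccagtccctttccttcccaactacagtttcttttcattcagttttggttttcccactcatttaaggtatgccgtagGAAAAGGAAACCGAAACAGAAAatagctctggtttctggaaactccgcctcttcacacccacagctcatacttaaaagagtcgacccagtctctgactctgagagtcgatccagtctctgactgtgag
Cxcl10, chr5:92348840-92349139, - strand: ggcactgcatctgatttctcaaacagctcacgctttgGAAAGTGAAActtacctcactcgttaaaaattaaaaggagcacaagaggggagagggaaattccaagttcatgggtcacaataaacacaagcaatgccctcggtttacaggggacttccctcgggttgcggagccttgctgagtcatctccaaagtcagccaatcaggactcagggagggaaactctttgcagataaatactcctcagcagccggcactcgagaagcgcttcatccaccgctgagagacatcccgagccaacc
The matches began 104 and 85 bases before the start in Ifit1, 156 and 122 bases before it in Ifit3 and 213 bases before it in Cxcl10, while in Isg15 3 overlapping matches began 78, 72 and 66 bases before it. The motif was found in at least 1 promoter of 16 of the 26 interferon genes in the promoter table (61.5%) and of 1079 of 27025 genes in all (3.99%). By call, it was found in 9 of the 17 genes that were higher in MVC and in 7 of the 9 others. A match is a description of the sequence and not evidence of binding.

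Of 14 compared chemokine and cytokine genes, 6 were called higher and 0 lower, against 10.0% and 2.51% of all compared genes. The list median was close to that of all compared genes, at log2 ratios of 0.13 and 0.10. In the marker-free cells 3 of 13 were higher and 1, Cxcl2, was lower, with a median of 0.04. Among all genes compared in those cells 8.41% were higher and 3.86% lower. Cxcl9 and Cxcl10, the interferon-induced ligands of CXCR3, which are also counted in the interferon list, were at 66.9 CPM in DMSO vs. 182 CPM in MVC cells and 83.3 CPM in DMSO vs. 182 CPM in MVC cells, with ratios of 2.72 (2.45 to 3.01) and 2.19 (1.99 to 2.405). Both were also higher among the marker-free cells, at ratios of 2.75 and 1.86. Cxcl1, Ccl2 and Ccl7, which attract neutrophils and monocytes, had ratios of 1.81, 1.79 and 3.16, but in the marker-free cells these were 0.894, 1.46 and 0.862, and in non-endothelial cells their DMSO levels were 2779, 1539 and 641 CPM, far above the 335, 142 and 19.2 CPM of capillary cells. The higher Cxcl1 and Ccl7 were thus not found without the cells that held markers of other types. Il1r1, the interleukin-1 receptor, was at 106 vs. 165 CPM (ratio 1.55, 95% interval 1.42 to 1.697; 1.63 in marker-free cells). Cxcl12, which retains CXCR4-expressing cells, was level at 909.8 vs. 939 CPM, and Il6 at 242 vs. 253 CPM.

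Genes of the circadian clock also differed. Of 15 compared genes, 7 were higher in MVC and 0 lower, against 10.0% higher among all compared genes, with a median log2 ratio of 0.58. They were the clock output genes Dbp, Tef and Hlf, the period genes Per2 and Per3, and the repressors Nr1d1 and Nr1d2 (REV-ERB alpha and beta). Dbp (chromosome 7, 45705088 to 45710203, + strand, GRCm38) had the highest ratio of all named genes, with 22 UMIs in DMSO and 133 in MVC, which is 2.66 CPM (1.66 to 4.02) vs. 19.6 CPM (16.4 to 23.2) and a ratio of 7.38 (4.68 to 12.2). Tef and Nr1d1 were at 10.4 vs. 37.0 CPM and 15.2 vs. 52.9 CPM, with ratios of 3.56 (2.78 to 4.61) and 3.48 (2.83 to 4.297). The activators, which peak at the opposite time of day, lay on the other side of 1 without being called. Arntl (BMAL1) was at 99.2 vs. 71.2 CPM (ratio 0.718, 95% interval 0.640 to 0.804), Npas2 at 16.8 vs. 11.9 CPM (ratio 0.712) and Clock at 134 vs. 114 CPM (ratio 0.851). Outside capillaries the list median was lower, at 0.33 in arterial, 0.31 in venous and -0.012 in non-endothelial cells. Over all compared genes in those classes it was 0.07, -0.08 and 0.05. The calls were also one-sided in non-endothelial cells. There 6 of its 15 genes were at least 1.5-fold higher and 0 lower, against 3.83% higher among all compared genes. The ratios in non-endothelial cells were 5.21 for Dbp, 2.23 for Nr1d1, 1.91 for Tef and 1.25 for Hlf. In venous cells 2 of 12 genes were higher and 2 lower, beside 10.7% higher and 1152 of 7772 lower among all compared genes. In arterial cells 5 of 14 were higher and 1 lower, beside 16.5% higher and 535 of 7328 lower. The arterial ratios of Dbp, Tef, Nr1d1 and Hlf were 1.57, 2.28, 1.65 and 1.67. The venous ratios of Tef, Nr1d1 and Hlf were 5.06, 1.31 and 5.93, and Dbp had 0 UMIs in DMSO and 9 in MVC venous cells. Per3 had a ratio of 1.46 in marker-free cells, where it was no longer past the limit. The hour at which tissue was taken is not given in the sources used here. Tef is shown as the clock gene of the called set with an E-box, CACGTG, the site of the CLOCK and BMAL1 pair, which stands in capitals 127 bases before the start (RefSeq, GRCm38.p6).
Tef, chr15:81802423-81802722, + strand: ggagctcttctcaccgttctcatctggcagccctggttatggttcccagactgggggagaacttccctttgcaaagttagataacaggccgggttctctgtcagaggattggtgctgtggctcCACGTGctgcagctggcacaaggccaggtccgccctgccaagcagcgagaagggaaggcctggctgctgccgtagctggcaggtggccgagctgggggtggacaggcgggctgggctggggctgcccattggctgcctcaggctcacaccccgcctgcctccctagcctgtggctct
An E-box was found in 5 of the 15 clock genes with a promoter in the table (Bhlhe41, Ciart, Cry1, Per1 and Tef) and in 8.09% of all 27025 genes, and of the 6 called genes with a promoter 1 held it.

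**Figure D4:**
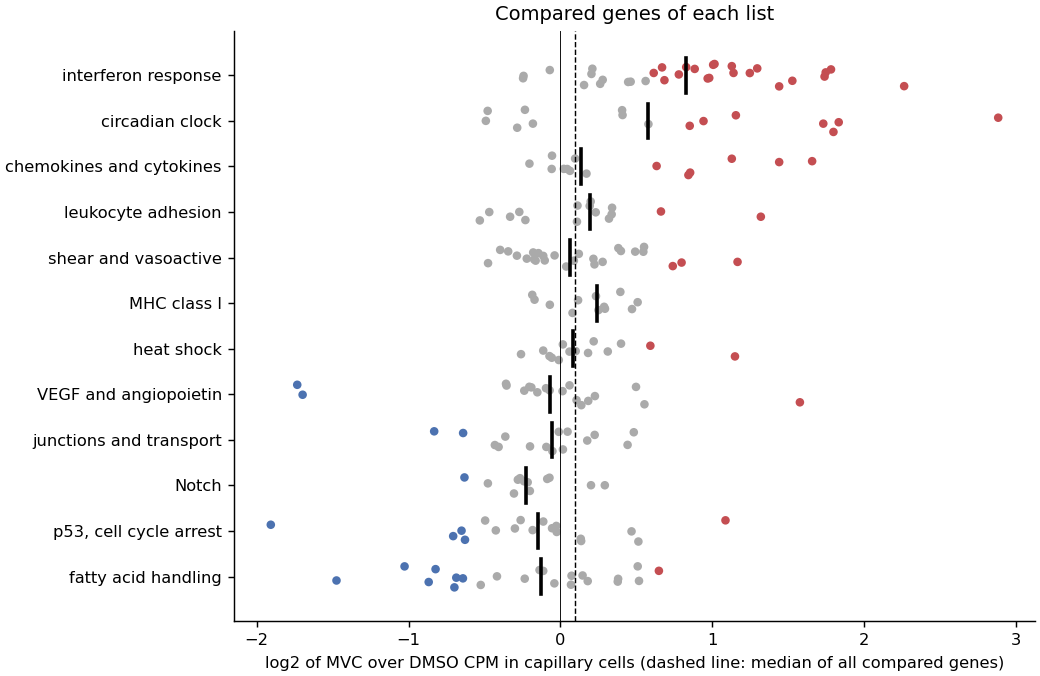
Log2 ratio of MVC over DMSO CPM in capillary cells (x axis) of each compared gene in 12 lists (rows, points spread vertically for display); red and blue points are genes at least 1.5-fold higher or lower in MVC, black bars are list medians and the dashed line is the median of all compared genes, 0.10. The interferon and clock lists have medians of 0.83 and 0.58 and no blue points, whereas 7 of 22 genes of fatty acid handling and 4 of 18 genes of the p53 list are blue.

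Angiogenic signalling genes differed at a few points and not as a group. Of 19 compared genes of the VEGF and angiopoietin systems, 2 were lower and 1 was higher. Esm1 (chromosome 13, 113209659 to 113218098, + strand, GRCm38), a proteoglycan secreted by tip cells under VEGF, was at 37.3 CPM in DMSO vs. 11.5 CPM in MVC cells (ratio 0.308, 95% interval 0.237 to 0.396; 0.205 in marker-free cells). Its ratio was 0.239, 0.405 and 0.737 in cells with 5, 4 and 2 or 3 capillary genes, so it was not called in the last, which held 26 and 21 UMIs. The VEGF family ligand Pgf was at 49.01 CPM in DMSO vs. 14.7 CPM in MVC cells (ratio 0.301, 95% interval 0.239 to 0.375). Aplnr, the apelin receptor, was higher, at 6.52 CPM in DMSO vs. 19.5 CPM in MVC cells (ratio 2.99, 95% interval 2.16 to 4.18). The receptors were closer to equal, with ratios of 1.08 for Tek, 0.936 for Tie1, 0.9002 for Nrp1 and 1.04 for Flt4. Adgrf5 was level, at 1240.4 vs. 1253 CPM. In the Notch pathway, 1 of 12 genes was called. The ligand Dll4, which restrains tip cells, was at 119 CPM in DMSO vs. 76.5 CPM in MVC cells (ratio 0.645, 95% interval 0.579 to 0.719) and at a ratio of 0.723 among marker-free cells, where it was not called. Hes1, a Notch target, had a ratio of 0.718 and Notch1 one of 0.809. In the BMP and TGF-beta pathway, the ligand Bmp4 was lower at 62.04 vs. 35.97 CPM (ratio 0.5797, 95% interval 0.496 to 0.676) and Ltbp4, which binds latent TGF-beta, was higher at 99.8 vs. 190.2 CPM (ratio 1.905, 95% interval 1.74 to 2.08), with the target Id1 at 1043 vs. 727 CPM (ratio 0.697). Kit, a receptor tyrosine kinase, was lower, at 29.1 vs. 11.9 CPM (ratio 0.4104, 95% interval 0.315 to 0.530), and so was Inhbb, a subunit of activin B, at 54.6 vs. 18.1 CPM (ratio 0.332, 95% interval 0.270 to 0.406).

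Of 18 pan-endothelial genes, Cldn5 and Ecscr were lower in MVC and 0 higher, and of 15 junction and transport genes, Cldn5 and Aqp1 were lower and 0 higher. Cldn5, the main claudin of endothelial tight junctions, was at 1465 CPM in DMSO vs. 823 CPM in MVC cells (ratio 0.562, 95% interval 0.544 to 0.5802; 0.647 in marker-free cells), with ratios of 0.739 in arterial and 1.35 (0.763 to 2.37) in venous cells. Aqp1 was at 2885 CPM in DMSO vs. 1851 CPM in MVC cells (ratio 0.641, 95% interval 0.628 to 0.656), and its ratio was 0.703 in marker-free cells, where it was no longer called. The junction adaptor Tjp1 was at 350.2 vs. 476 CPM (ratio 1.36), and the caveolar genes Cav1, Cavin1 and Cavin2 had ratios of 0.931, 0.993 and 1.03. Car4 was at 172 vs. 129.6 CPM (ratio 0.754, 95% interval 0.693 to 0.821).

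Vasoactive genes and genes responsive to shear stress were mostly level. Of 26, 3 were higher and 0 lower. Calcrl, the receptor that pairs with RAMP proteins to bind adrenomedullin, was at 130.5 vs. 218 CPM (ratio 1.67, 95% interval 1.54 to 1.81; 1.58 in marker-free cells). The prostaglandin enzymes Ptgs2 and Ptgis had ratios of 2.25 and 1.74, and of 0.694 and 1.33 in marker-free cells, so neither remained called there. Nos3, the endothelial nitric oxide synthase, was at 162 vs. 172 CPM (ratio 1.06, 95% interval 0.983 to 1.15), and the flow-responsive factors Klf2 and Klf4 at ratios of 0.8201 and 0.7597. Among 15 leukocyte adhesion genes, Vcam1 (48.04 vs. 120.0 CPM, ratio 2.498) and Jam3 (35.9 vs. 56.8 CPM, ratio 1.58) were higher and 0 lower, with Vcam1 at a ratio of 1.39 in marker-free cells, no longer called. Icam1 was level, at 991 vs. 1072 CPM. Of 17 basement membrane genes, Col18a1 was higher (8.93 vs. 14.7 CPM, ratio 1.65) and Igfbp3 lower (202 vs. 134 CPM, ratio 0.661; 0.777 in marker-free cells, no longer called), while the collagen IV chains Col4a1 and Col4a2 had ratios of 0.798 and 0.866.

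Among stress and dissociation genes, few of the heat shock and immediate early lists were called. The median log2 ratios of these 2 lists were 0.08 and -0.07, beside 0.10 over all compared genes. The heat shock genes were among the most abundant transcripts of capillary cells in each library, with Hspa1a at 6129 vs. 6573 CPM and Hspb1 at 5613 vs. 5397 CPM. Of 14 compared heat shock genes only Hspd1 (524 vs. 790.0 CPM, ratio 1.51) and Cryab (26.4 vs. 58.7 CPM, ratio 2.22) were called, both higher, and Cryab was at 0.937 in marker-free cells. Of 22 immediate early genes only Myc was called, lower, at 102 vs. 55.4 CPM (ratio 0.543, 95% interval 0.4799 to 0.614). In the marker-free cells Myc and Fosl1 were called lower and Egr3 and Nr4a1 higher. Among 14 NF-kappa B feedback genes Il1r1 and Traf1 were higher and 0 lower. Slc3a2, a subunit of amino acid transporters, was lower, at 299 vs. 186 CPM (ratio 0.621, 95% interval 0.5802 to 0.665), and its partner Slc7a11, the cystine transporter, was higher, at 5.43 vs. 15.04 CPM (ratio 2.77, 95% interval 1.93 to 4.02). They were the only called genes among 10 targets of ATF4. The list as a whole lay lower in MVC, with a median log2 ratio of -0.26 and 2 of 10 ratios above 1. In marker-free cells the median was -0.38 over 7 genes. The Slc7a11 value rests on few cells, since 3 cells held 37.8% of its 45 UMIs in DMSO and 56.9% of its 102 in MVC. Of 11 targets of NRF2 and ferritin genes, Slc7a11 was higher and Hmox1, which degrades haem, was lower, at 1762 vs. 1102 CPM (ratio 0.626, 95% interval 0.608 to 0.643). The median log2 ratio of these 11 genes was -0.145, and 3 had a ratio above 1. Of 14 glycolytic genes only Eno1 was called, at a ratio of 1.501 (1.198 to 1.88).

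Among 18 genes of the glucocorticoid response and metallothioneins, 4 were lower and 2 higher. Ctla2a (chromosome 13, 60934155 to 60936625, - strand, GRCm38), a cathepsin inhibitor of endothelium, was at 1238 CPM (1214 to 1262) in DMSO and 375 CPM (361 to 390.3) in MVC, a ratio of 0.303 (0.2903 to 0.317). It was 0.314 in marker-free, 0.324 in venous and 0.368 in non-endothelial cells, but 0.883 (0.534 to 1.45) in arterial cells. Reads can be shared between Ctla2a and its neighbour Ctla2b, which had a ratio of 0.5004. Zbtb16 (PLZF) was at 141 vs. 64.9 CPM (ratio 0.459, 95% interval 0.411 to 0.513). The classical glucocorticoid targets Fkbp5, Tsc22d3 and Klf9 were not called, with ratios of 1.05, 0.862 and 1.03. Mt1 and Mt2 were higher, at ratios of 1.68 and 1.69, and at 2.23 and 2.65 in marker-free cells, but lower when the rule was applied to thinned cells (log2 ratios of -0.29 and -0.44). Mgp, an inhibitor of calcification, was lower at 569 vs. 213 CPM (ratio 0.374) but level among the marker-free cells (1.02).

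The 15 genes with the highest and the 15 with the lowest ratios, named by size, were led by the groups above. At the high end were 4 interferon genes of the list (Ifit2, Ifit1, Ifi44 and Ifit3), the interferon-inducible Gbp5 (36.3 vs. 118 CPM, ratio 3.25), 4 clock genes (Dbp, Tef, Nr1d1 and Hlf) and Alpl, Ncald, Itih5, Islr, Prrx1 and Rcn3. Alpl, tissue nonspecific alkaline phosphatase, was at 30.8 CPM in DMSO vs. 99.1 CPM in MVC cells (ratio 3.22, 95% interval 2.78 to 3.73), and its ratio was 1.49 in arterial and 1.06 in non-endothelial cells. Ncald, a neuronal calcium sensor, was at 21.5 vs. 88.6 CPM (ratio 4.12, 95% interval 3.48 to 4.902). Islr, Prrx1 and Rcn3 were far higher in non-endothelial cells, at 75.1, 188 and 40.1 CPM in DMSO against 4.95, 13.4 and 5.31 CPM in capillary cells. In the marker-free cells, which held 21 or fewer UMIs of each per library, the ratios of Islr and Prrx1 were 2.92 (1.37 to 6.503) and 3.67 (1.17 to 13.5), both still past the limit, and Rcn3 was level, with an interval of 0.386 to 2.44. Itih5 was at 7.69 (4.18 to 15.3) in marker-free cells, on 13 and 60 UMIs. It too was far higher in non-endothelial cells, at 219 CPM in DMSO against 12.8 CPM in capillary cells. Marker-free cells still held fibroblast and tenocyte transcripts, at a higher level in MVC. At the low end, besides Gdf15, Ctla2a, Esm1, Inhbb, Lpl and Kit, were AA467197 (33.6 vs. 6.49 CPM, ratio 0.193), Tmem252 (209 vs. 81.4 CPM, ratio 0.389), Bc1, a neuronal noncoding RNA (38.6 vs. 11.8 CPM, ratio 0.305), Ctla4, Svopl, Dnah3 and 3 genes with near-identical copies, Ftl1-ps1, Rps27rt and Tpm3-rs7, whose values are uncertain. Bc1 was lower in every class, with ratios of 0.153 in arterial, 0.293 in venous and 0.312 in non-endothelial cells. Ctla4 was also lower in every class, at 0.221, 0.199 and 0.243 in the same order. Its DMSO level was 36.8 CPM in non-endothelial against 10.7 CPM in capillary cells.

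**Figure D5:**
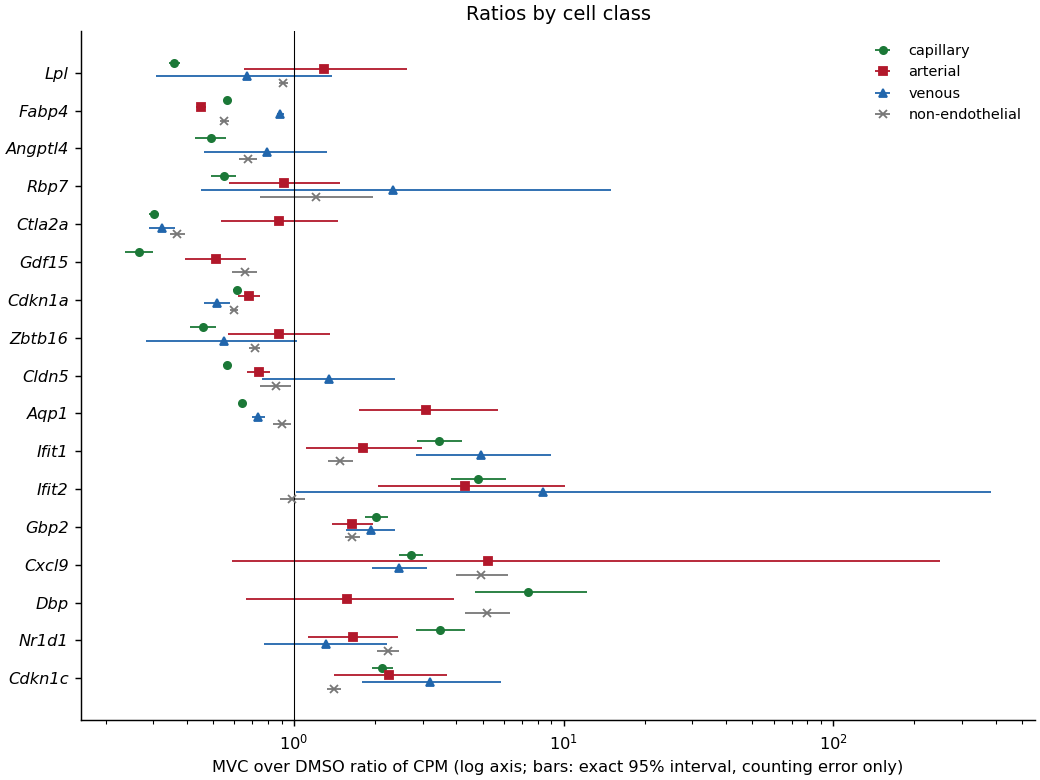
MVC over DMSO ratio of CPM (x axis, log axis) of 17 genes in capillary, arterial, venous and non-endothelial cells; bars are exact 95% intervals that cover counting error only, and a class without UMIs of the gene in 1 of the libraries is not drawn. Lpl is at 0.360 in capillary and 0.911 in non-endothelial cells, Cdkn1a lies below 1 in all 4 classes, and Ifit2 is at 4.81 in capillary and 0.985 in non-endothelial cells.

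Capillary cells of the same library also varied among themselves. After thinning to 2000 UMIs, 4836 genes were ranked by the ratio of variance to mean across cells, for which counting noise alone gives about 1. The haemoglobin genes Hbb-bs, Hba-a1, Hba-a2 and Hbb-bt held the top 4 places in MVC and 4 of the top 5 in DMSO, where Mgp had rank 4. Hbb-bs had 539 in DMSO and 545 in MVC. The other genes of the 10 were Gm42418, Dcn, Selp, Thbs4, Mgp and Hspa1a. Dcn and Thbs4 are genes of fibroblasts and tenocytes, with 15.4 vs. 19.0 and 14.9 vs. 14.9, and Selp, the venous rule gene P-selectin, had 17.8 vs. 15.4. Hspa1a, the inducible heat shock protein 70, had 13.9 vs. 15.2 at means of 12.7 vs. 14.3 UMIs per thinned cell. Fabp4 was the first gene of the capillary check list in this order, at rank 13 of 4836 in DMSO and 25 in MVC, with 13.0 vs. 9.26 at means of 26.5 vs. 15.8 UMIs per thinned cell.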

How the data were processed

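Single-cell RNA sequencing (10x Genomics) of mouse limb muscle mononuclear cells gave 1 library per group, DMSO and MVC. The deposited matrices hold whole-number UMI counts per gene and cell, which the authors made with Cell Ranger 7.0.0 on mm10 (per the file headers and the submitters' processing notes, which also name Seurat 5.0.1); the annotation release and whether intronic reads were counted are not given in the sources used here. The matrices held 5812 and 6047 barcodes and 39150511 and 36063575 UMIs. As in the study, cells were dropped below 500 genes or above 10% mitochondrial UMIs, leaving 5437 and 5454; no doublets were removed in the values reported.

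Counts were summed per library and class and scaled to CPM with exact Poisson intervals; ratios had exact conditional intervals, shares exact binomial (Clopper-Pearson) and their differences Newcombe intervals, all at 95%. UMIs are not independent draws of animals, so intervals cover counting error only, and cells are not replicates. Genes with at least 100 UMIs over both libraries were compared, and called at 1.5-fold (2-fold in each library between vessel classes). A gene that reached 100 UMIs may have done so through 1 library. Members, gene lists and the rules for named genes were chosen with earlier results of these data known. Named genes were the 15 highest and 15 lowest ratios whose interval excluded 1, with under 20% of UMIs in the top 3 cells of the higher library and without rule genes, mitochondrial genes and gene models named by number, then members of the lists, the 10 genes highest and lowest against both other vessel classes, and the 10 most variable genes. Gene positions came from GENCODE M21 (GRCm38), which held 32235 of 32285 gene IDs. The marker-free subset, the split by level in non-endothelial cells and Fabp4 among the variable genes were chosen after the values were seen. Some genes of the lists are not reported here. The ratio and rule code was tested on simulated data. Alternatives were a stricter cell filter, the rule on cells thinned to 2000 UMIs, removal of simulated-doublet calls (0.8% per 1000 cells), a score of at least 3, the rule without each capillary gene, median scaling, the mean of each cell's CPM and other gene minimums. Python 3.11.15, NumPy 2.4.6, SciPy 1.17.1, pandas 2.3.3, scikit-learn 1.9.0 and matplotlib 3.10.9 were used.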

Additional observations from a re-analysis of the deposited data

Results flagged for a closer look

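Some genes called in capillary cells had a ratio on the other side of 1 in arterial or venous cells of the same libraries. With 1 library per group the difference between the classes was not tested, and the arterial and venous classes are small (146 and 176 cells in DMSO, 130 and 134 in MVC). Aqp1 was lower in MVC capillary cells (ratio 0.641) and at a ratio of 3.08 (1.75 to 5.70) in arterial cells, on 17 and 50 UMIs. Ccl2 and Ccl7 were higher in capillary cells (1.79 and 3.16) and at 0.204 (0.146 to 0.279) and 0.0941 (0.0366 to 0.203) in arterial cells. Mt1 and Mt2, at 1.68 and 1.69 in capillary cells, were at 0.819 and 0.771 in arterial cells. Vcam1 (2.50 in capillary cells) was at 0.928 and Ltbp4 (1.90) at 0.892 in arterial cells, both close to 1. Ptgs2, at 2.25 in capillary cells, was at 0.272 (0.218 to 0.337) in venous cells, and Mgp, at 0.374, was at 1.16 (1.02 to 1.31) in venous cells. The direction of Ccl7, Mt1, Mt2, Ptgs2 and Mgp in capillary cells itself turned under at least 1 alternative.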

How the results depend on the processing

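The share of capillary cells was lower in MVC under each alternative run. Among blood endothelial cells the difference of -6.40 points became -2.73 with the stricter cell filter, -9.17 with a score of at least 3 and -9.16 without Kdr in the rule. Of the counts of called genes, the higher genes moved from 949 to 588 in marker-free cells (where fewer genes reached 100 UMIs), 1434 at a minimum of 50 UMIs and 5151 at 1 UMI, and the lower genes from 238 to 392 with median scaling and to 405 and 3716 at these minimums. The 152 genes lower in capillary than in arterial and venous cells became 266 in marker-free cells. The cause of these shifts was not tested. Of 107 called genes named or listed, between 101 and 107 kept their direction and between 92 and 105 stayed past 1.5-fold in each setting. Those that turned, as log2 ratios, were Ccl7 (-0.60), Mgp (0.72), Mt1 (-0.29), Mt2 (-0.44) and Ptgs2 (-0.28) with the rule on thinned cells, Ptgis (-0.065) without simulated-doublet calls, and Rcn3 (-3.71e-05), Ccl7 (-0.21), Cryab (-0.093), Cxcl1 (-0.16), Mgp (0.025) and Ptgs2 (-0.53) in marker-free cells, where the median of the leukocyte adhesion list also turned, to -0.054. The called ratios of Mgp in DMSO and of Ptgs2, Ccl7 and Cryab in MVC rest on few cells, since the 3 cells richest in each held 82.8%, 48.0%, 49.1% and 40.5% of its UMIs there. Genes under 100 UMIs in capillary cells, Cdkn2a among them, could not be compared at this depth. Leaving out a replicate was not possible with 1 library per group. No paired analysis was possible because each group has 1 library and no result comes from a test.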
